A study of Rattus norvegicus with 49 samples.

Results

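The 10 genes described here, Myh1, Myh2, Myh4, Tnnt3, Tnni2, Tnnc2, Myl1, Myl11, Atp2a1 and Pvalb, encode proteins of the fast-twitch fibres of skeletal muscle. They were chosen by name, and a probe was taken for a gene where its RefSeq accession led to that symbol, so that 10 of the 15154 genes with a probe on the array were followed. Myh2 had 2 probes and each other gene was read through the probe with the highest mean signal. Levels are given as log2 of the processed signal minus the 75th percentile of the array, so that 0 is the level below which 75% of the array's probes lie and a step of 1 is a doubling. Each probe has its own brightness, and values were compared between arrays for one probe and not between genes.

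Thyroid RNA of single male Sprague Dawley rats was measured on 49 arrays in 13 groups. Young rats were injected with 131I at 5 weeks of age and killed after 9 months (0.5, 5, 50 or 500 kBq), or after 3 or 6 months (50 kBq). Adult rats were injected at 17 weeks of age with 50 kBq and killed after 3, 6 or 9 months. Untreated controls were 4, 7, 10 and 13 months old, and each exposed group was set against controls of the same age. Groups held 4 arrays, except 3 arrays in the 5 kBq group and in the controls of 7 and of 13 months. The model is excised thyroid tissue. The labels do not record how much of the gland, or of surrounding tissue, went into the RNA. In such bulk RNA fewer muscle fibres and less muscle RNA per fibre cannot be told apart.

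Fast fibres contract quickly, and many of them rely largely on glycolysis. Calcium released from the sarcoplasmic reticulum binds the troponin complex on the thin filament, which lets myosin heads pull on actin, and the calcium is then pumped back. Fast and slow fibres carry different gene copies for most of these parts. Muscles of the neck lie against the thyroid in the rat, and thyroid follicular cells do not form sarcomeres.

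Several arrays stood apart. Replicate 2 of the young 50 kBq group at 3 months was dim, with a 75th percentile of 61.0 signal units against 783 to 4172 on the other 48 arrays, and 42.9% of its spots were well above background against 69.0% to 82.4% elsewhere. Replicate 3 of the same group and replicate 2 of the controls of 7 months lacked the thyroid pattern that their labels give. Thyroglobulin (Tg) was at 0.14 and -0.69 on them and between 6.41 and 10.94 on the other 47 arrays. Replicates 1 and 2 of the controls of 13 months, and replicates 1 and 2 of the adult group at 6 months, were nearly identical. Over the 1000 most variable probes that were detected on all arrays, the SD of their differences was 0.226 and 0.301, and the next closest of 1176 pairs of arrays had 0.511. Each such pair was averaged and counted as 1 sample, which left 47 samples, with n = 2 in the controls of 13 months and n = 3 in the adult group at 6 months. In the first pair the 10 genes differed by -0.10 to 0.22 between the arrays, and in the second by 0.13 to 0.84.

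Most of the fast-fibre genes were among the brighter probes of these thyroid arrays. Among 30367 probes on an array the median rank was 1 for Tnni2 and 3 for Tnnc2, 102 for Myh1, 139 for Myl1 and 1032 for Myh2, and 9 of the 10 genes were well above background on all 49 arrays. Myh2 was well above background on 48 arrays with both of its probes. No spot was marked as saturated, but the probe of Tnni2 reached 93.8% of the scanner's saturation value on its brightest array and 61.2% on the median array, so that differences at the upper end of the scale may be compressed there. The median share of saturation was 59.9% for Tnnc2, 52.2% for Myl11, 31.5% for Myh4 and 4.79% for Myh2.

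**Figure D1:**
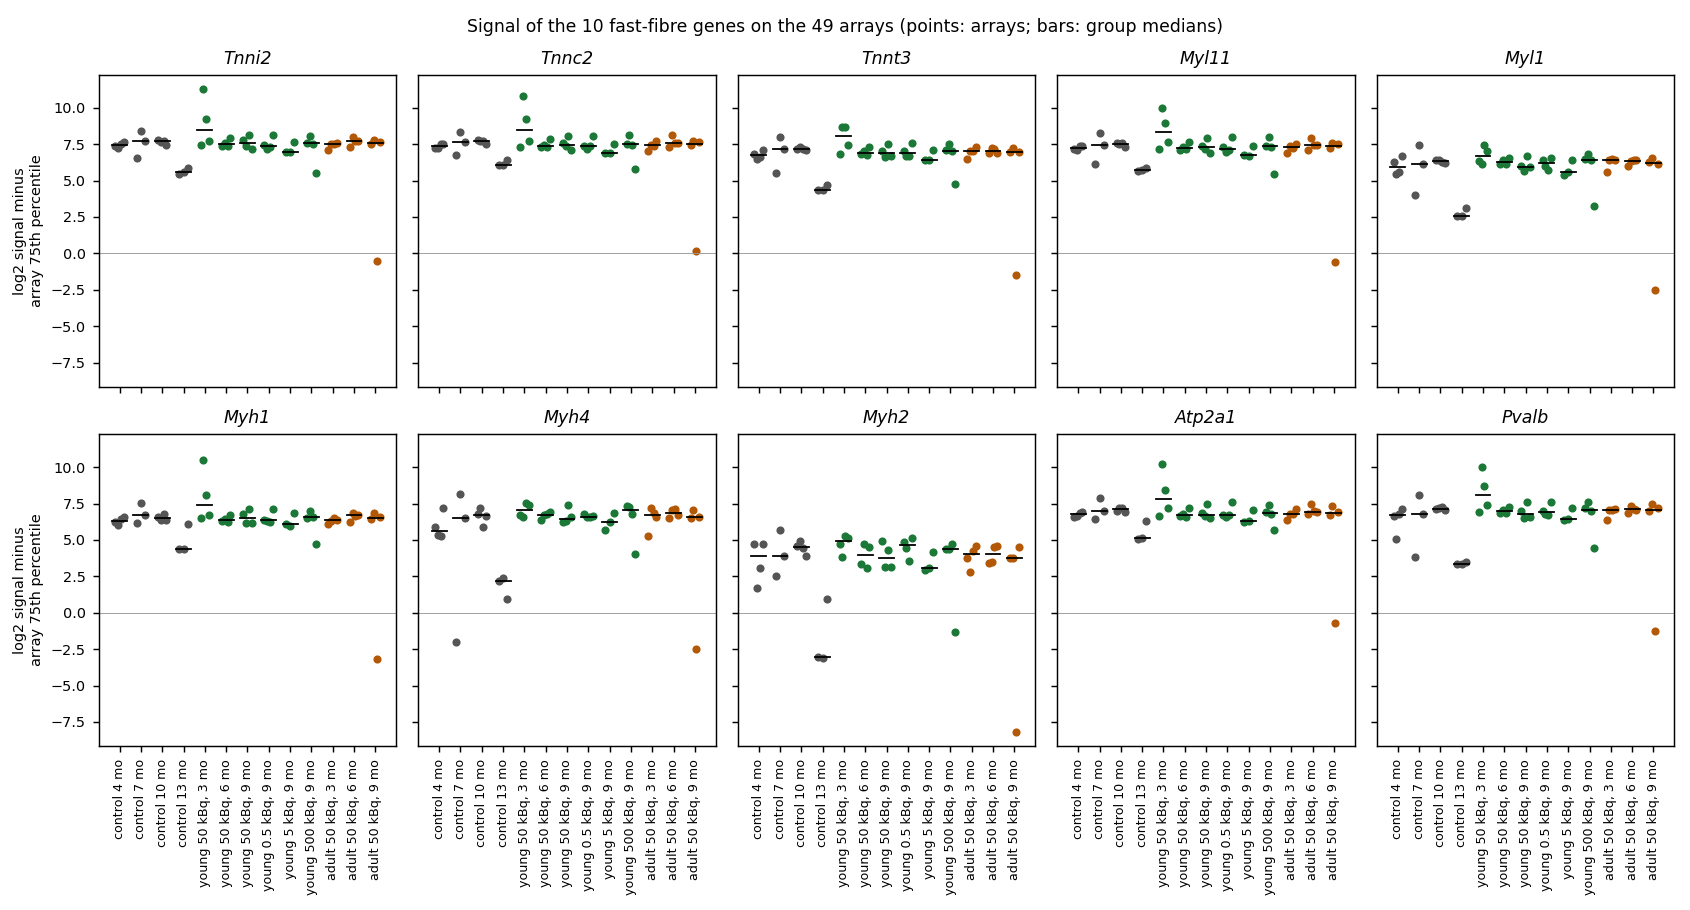
Log2 signal minus the array's 75th percentile (y axis) for each of the 10 genes, by group (x axis), with 1 point per array and a bar at each group's median. Most arrays lie in a narrow band, while replicate 3 of the adult group at 9 months lies far below it for every gene, at -8.20 for Myh2 and 0.18 for Tnnc2.

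The troponin genes of fast fibres form the calcium switch of the thin filament. Tnni2, the inhibitory subunit, had a lowest level of -0.52, a median of 7.54 and a highest level of 11.31 over the 49 arrays. Tnnc2, the subunit that binds calcium, had a lowest level of 0.18, a median of 7.48 and a highest level of 10.84. Tnnt3, the subunit that binds tropomyosin, ran from -1.51 over a median of 7.01 to 8.69. For all 3 genes the highest array was the dim one and the lowest was replicate 3 of the adult group at 9 months.

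Myl1 and Myl11 encode the essential and the regulatory light chain of fast myosin. Myl1 had a lowest level of -2.53, a median of 6.28 and a highest level of 7.44, and Myl11 had a lowest level of -0.58, a median of 7.34 and a highest level of 10.00. The dim array was not high for both. Relative to each gene's own median over the 49 arrays, Myl11 lay 2.67 higher on it and Myl1 was at -0.15. Atp2a1, the calcium pump of the fast sarcoplasmic reticulum, ran from -0.71 over a median of 6.81 to 10.19. Pvalb, the soluble calcium buffer that speeds relaxation, ran from -1.29 over a median of 7.02 to 10.00.

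The 3 heavy chain genes encode the motor proteins that set the speed of a fibre, with Myh4 for the fastest type IIb fibres, Myh1 for type IIx and Myh2 for type IIa. Myh1 had a lowest level of -3.19, a median of 6.43 and a highest level of 10.49. Myh4 had a lowest level of -2.50, a median of 6.58 and a highest level of 8.14. Myh2 had a lowest level of -8.20, a median of 4.16 and a highest level of 5.72. Myh2 and Myh4 varied most over the 49 arrays, with an SD of 2.49 and 2.18 log2 units, and Tnnc2 varied least, with an SD of 1.29. The myosin heavy chain genes are near copies of each other, and how far each probe also binds the transcripts of the other copies was not tested, since the probe sequences were not used here.

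In RefSeq (GRCr8) the 3 heavy chain genes lie side by side on chromosome 10, Myh2 at chr10:52355739-52382235, Myh1 at chr10:52384810-52408698 and Myh4 at chr10:52422148-52445296. Their upstream sequences are shown because these neighbours moved apart on several arrays. Each line gives the 250 bases before the start of one RefSeq transcript on the plus strand, 5′ to 3′, at chr10:52355489-52355738, chr10:52384662-52384911 and chr10:52421898-52422147, and the sequence of Myh1 reaches into the gene's RefSeq interval. Capitals mark TATAAA and the E-box CANNTG on either strand.
Myh2: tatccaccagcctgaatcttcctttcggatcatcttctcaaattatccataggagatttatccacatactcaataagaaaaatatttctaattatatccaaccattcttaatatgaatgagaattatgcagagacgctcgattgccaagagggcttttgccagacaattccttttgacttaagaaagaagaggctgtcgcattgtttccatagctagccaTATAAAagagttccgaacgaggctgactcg
Myh1: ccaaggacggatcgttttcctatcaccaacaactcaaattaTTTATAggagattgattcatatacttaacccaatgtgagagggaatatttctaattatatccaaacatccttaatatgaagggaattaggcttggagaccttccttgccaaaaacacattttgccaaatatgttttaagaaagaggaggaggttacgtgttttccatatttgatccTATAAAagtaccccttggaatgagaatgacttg
Myh4: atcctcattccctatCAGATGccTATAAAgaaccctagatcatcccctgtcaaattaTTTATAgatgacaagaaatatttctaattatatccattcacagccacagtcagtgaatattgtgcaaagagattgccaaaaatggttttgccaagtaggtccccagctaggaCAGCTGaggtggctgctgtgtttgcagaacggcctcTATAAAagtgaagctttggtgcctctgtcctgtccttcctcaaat
The TATAAA nearest to the start lay 30 bases before it for Myh2, 33 bases for Myh1 and 45 bases for Myh4. The E-box, the motif that MyoD-type factors bind, was found 2 times before Myh4 and not in the windows of Myh1 and Myh2, and a match to the MEF2 site was found in the windows of Myh1 and Myh4. Of the 10 genes, 9 were matched in the promoter table, of which 7 had an E-box, 5 had TATAAA and 3 had a MEF2 site. Among all 33469 promoters of the table, 65.5% held the E-box, 12.9% held TATAAA and 2.96% held a MEF2 site. Motifs were searched on both strands, matches of different motifs may overlap, and a match is a description of letters only.

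On single arrays the genes fell and rose together over a wide range. The mean of the 10 genes was lowest on replicate 3 of the adult group at 9 months, at -2.08, against a median of 6.71 over the 49 arrays. On that array Tnni2 was at -0.52, Tnnc2 at 0.18, Tnnt3 at -1.51, Myl11 at -0.58, Myl1 at -2.53, Myh1 at -3.19, Myh4 at -2.50, Atp2a1 at -0.71 and Pvalb at -1.29. Myh2 was at -8.20 there and was not well above background. The other 3 arrays of that group had means in the usual range, with Tnni2 at 7.48, 7.77 and 7.63. Thyroid genes of the lowest array were at usual levels, with Tg at 6.97 and Pax8 at 3.04.

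Intermediate levels were found on 5 more arrays. The mean of the 10 genes was 3.60, 3.65 and 4.37 on the 3 arrays of the controls of 13 months, 4.24 on replicate 4 of the 500 kBq group and 4.61 on replicate 1 of the controls of 7 months. The highest means were 8.81 on the dim array, 8.16 on replicate 3 of the young group at 3 months and 7.78 on replicate 2 of the controls of 7 months. The latter pair are the arrays without the thyroid pattern. On the other 40 arrays the mean lay between 5.82 and 7.24, and the SD over these arrays was between 0.28 for Tnni2 and 0.78 for Myh2. On the unscaled signal the dim array lay below the median for all 10 genes, with Myh1 at 87549 against a median of 233170 over all arrays.

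**Figure D2:**
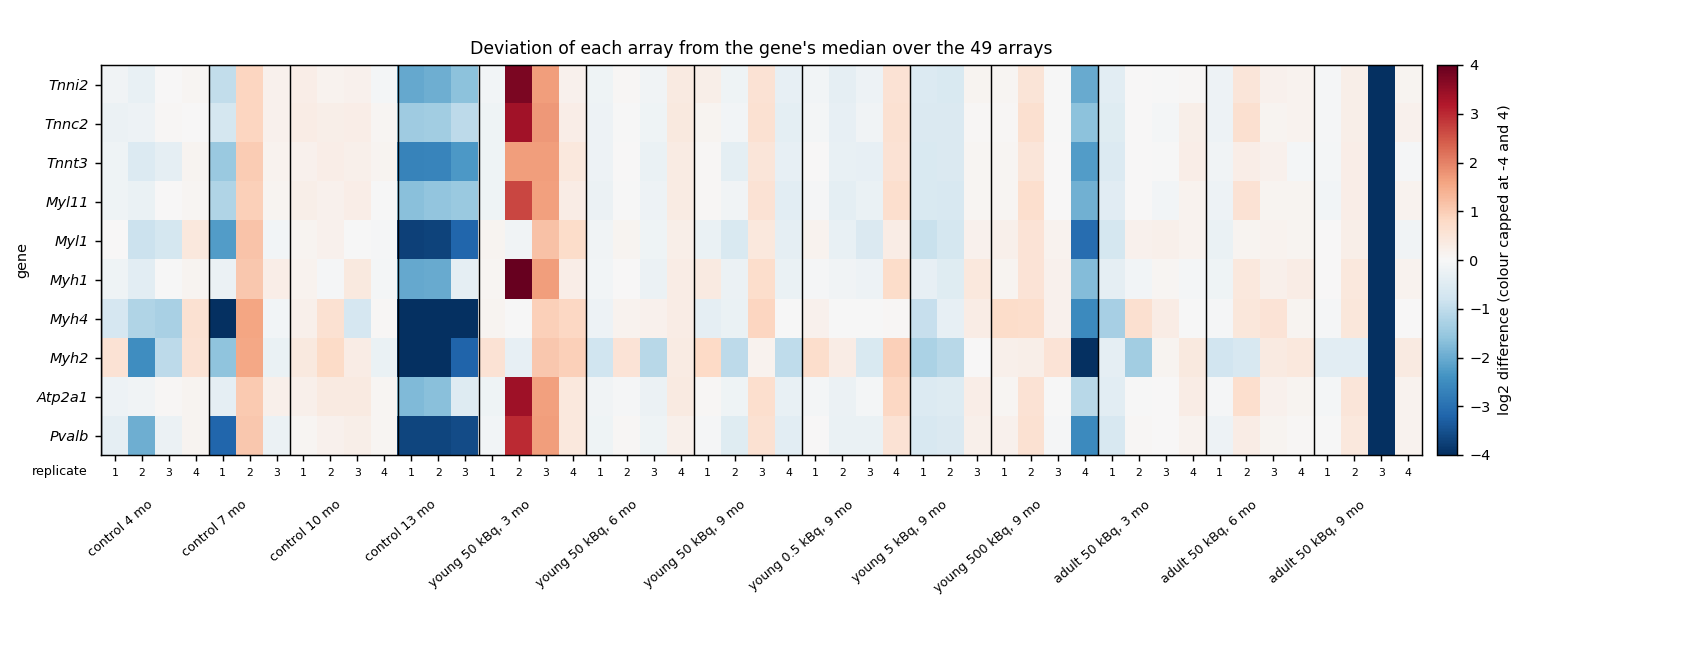
Difference of each array (columns, by group) from each gene's own median over the 49 arrays (rows), on the log2 scale, with the colour capped at -4 and 4. The columns of replicate 3 of the adult group at 9 months and of the controls of 13 months are low for nearly all genes, and on replicate 1 of the controls of 7 months Myh4 is the lowest gene, at -8.60.

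The genes did not fall by equal amounts. On replicate 1 of the controls of 7 months Myh4 lay 8.60 below its own median (-8.60), Pvalb was at -3.16, Myl1 at -2.25 and Myh2 at -1.61, while Myh1 was at -0.23 and Atp2a1 at -0.34. On replicate 3 of the controls of 13 months the difference from the gene's median was -5.63 for Myh4, -3.19 for Myh2 and -0.36 for Myh1. On replicate 1 of the same group it was -4.43 for Myh4, -7.20 for Myh2 and -2.04 for Myh1. Of the 2 neighbours, Myh4 lay further down on the former array and Myh2 on the latter. Replicate 2 of the controls of 4 months was lower in Myh2 (-2.49), Pvalb (-1.96) and Myh4 (-1.22) than in Tnnc2 (-0.21) and Atp2a1 (-0.13).

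**Figure D3:**
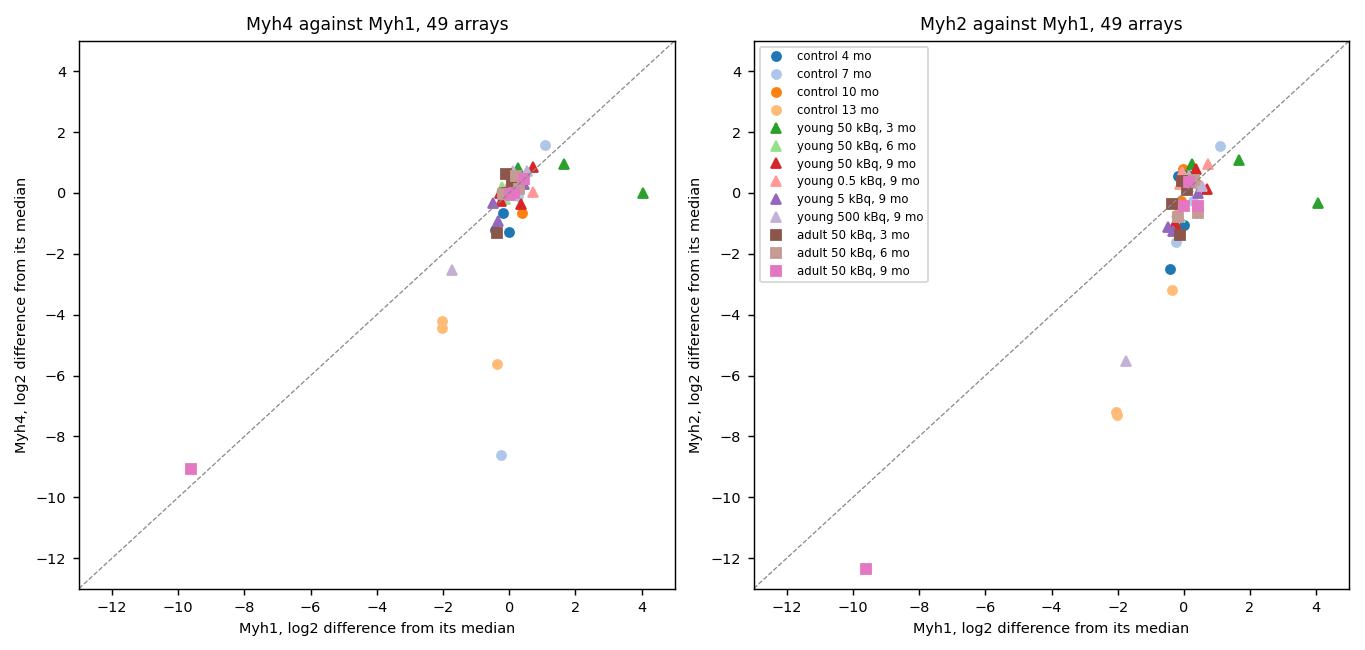
Difference from the gene's own median for Myh4 (left) and Myh2 (right) against that for Myh1, in log2 units. There is 1 point per array, and a dashed line marks where both genes deviate equally. Points below the line show arrays on which Myh2 or Myh4 was lower than Myh1 relative to their medians, down to -8.60 for Myh4 where Myh1 was at -0.23.

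As a description over the 47 samples, Pearson's r between any 2 of the 10 genes ran from 0.67 (Myh1 and Myh4) to 0.996 (Tnni2 and Tnnc2), with a median of 0.92. Without the lowest array the range was 0.39 to 0.99 and the median was 0.83. All genes of an array share its scaling, and some samples share a group. The 10 other genes most like the mean of the 10, among 12394 genes, were Ckm, Pgam2, Casq1, Actn3, Cox6a2, Acta1, Trdn, Eno3, Myoz1 and Art1, with r from 0.994 for Ckm to 0.978 for Art1 over the 47 samples. Ckm encodes muscle creatine kinase, Casq1 the calcium store protein of fast fibres and Actn3 the alpha-actinin of fast Z-discs.

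Group levels followed the single arrays. For Tnni2, the group means were 8.91 ± 1.78 (SD, n = 4) in the young group at 3 months, 7.69 ± 0.02 (SD, n = 3) in the adult group at 6 months, 7.66 ± 0.14 (SD, n = 4) in the controls of 10 months, 5.71 ± 0.26 (SD, n = 2) in the controls of 13 months and 5.59 ± 4.08 (SD, n = 4) in the adult group at 9 months. The other 8 groups had Tnni2 means from 7.17 to 7.61, which differed by less than the largest SD among them. For Myh4 the means were highest in the young group at 3 months, 7.05 ± 0.49 (SD, n = 4), and lowest in the controls of 7 months, 4.20 ± 5.45 (SD, n = 3), and of 13 months, 1.60 ± 0.93 (SD, n = 2). For Myh2 the highest mean was 4.74 ± 0.64 (SD, n = 4) in the young group at 3 months and the lowest was -1.06 ± 2.87 (SD, n = 2) in the controls of 13 months. The young group at 3 months had the highest mean for all 10 genes, but for 4 of them without the dim array and the arrays lacking the thyroid pattern, where its Tnni2 mean was 7.57. The lowest mean was that of the controls of 13 months or of the adult group at 9 months.

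Among untreated rats, all 10 genes were lower in the controls of 13 months than in those of 4 months, but none passed the test. Myh4 was at 2.15, 2.37 and 0.94 on the arrays of the controls of 13 months, of which the first 2 are near-identical, and at 5.91, 5.36, 5.30 and 7.20 in the controls of 4 months. Myh2 was at -3.04, -3.14 and 0.98 against 4.73, 1.67, 3.11 and 4.75. Myl1 was at 2.55, 2.57 and 3.09 against 6.30, 5.42, 5.57 and 6.69, and Pvalb at 3.34, 3.34 and 3.45 against 6.66, 5.06, 6.77 and 7.12. For these 4 genes no array of the older controls reached the lowest of the younger ones.

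The log2 fold change was -4.62 ± 1.87 (SE) for Myh2, -4.34 ± 1.70 for Myh4, -3.17 ± 1.27 for Myl1 and -3.01 ± 1.29 for Pvalb, with limma's Benjamini-Hochberg adjusted p of 0.109, 0.0985, 0.106 and 0.129. Tnnt3 differed by -2.23, Tnni2 by -1.74, Myl11 by -1.46, Tnnc2 by -1.13, Atp2a1 by -1.07 and Myh1 by -1.07, with adjusted p in limma from 0.218 to 0.635. The second probe of Myh2 gave -5.10, with an adjusted p of 0.0629 in limma. The median of the 10 genes was -1.99 and that of all probes tested was 0.18. At an adjusted p under 0.01 and a fold change above 1.5, 0 of the 10 genes were called against 5 of 24105 probes (0.0207%), and 4 of the 10 had an unadjusted p under 0.05, against 27.1% of all probes.

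In this comparison 9 of the 10 genes did not overlap between the groups, with the older controls lower, against 15.1% of all probes, and Myh1 was the exception. For these 9 genes the two-sided exact permutation test gave p = 0.0667, the smallest that 2 samples against 4 allow. They were picked for not overlapping, and this p only restates that. With the slide as a block the median was -0.98. Within the slides that held both groups it was -1.61 and -2.46, with 1 control of 4 months on each. The near-identical arrays, counted as 1 sample, lay on different slides, so these values are not independent. The 3 arrays that stand apart and the lowest array belong to neither group but add to the shared estimate of the spread. Leaving out only the 3 arrays, 0 of the 10 genes were called, against 2655 of 24105 probes. With the lowest array left out as well, 7 of the 10 were called against 14% of all probes, and those not called were Myh1, Tnnc2 and Atp2a1. The lowest array was picked for its low values in these same genes. Leaving it out narrows their spread, so these 7 calls are no independent support.

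Other muscle genes had lower means in the controls of 13 months too. Of 12 further fast-fibre genes 0 had a positive difference, with a median of -2.92. This list also holds genes of glycolytic muscle and developmental heavy chains of the same gene cluster. Among its genes Myh3, the embryonic heavy chain, differed by -4.98, Pygm, muscle glycogen phosphorylase, by -3.56 and Myh8, the perinatal heavy chain, by -0.70. Genes of the sarcomere in all fibres had a median of -3.28 over 20 genes, with 0 positive. Slow-fibre genes had a median of -3.42 over 14 genes, with 2 positive, and ran from -6.68 for Myl2, the slow regulatory light chain, to 0.80 for Tpm3. Among them Myh7, the slow heavy chain, differed by -6.18, Tnnt1, the slow troponin T, by -5.01 and Myh7b by 0.32. The 9 myogenic regulators had a median of -2.43, with Myod1 at -3.98 and Myog at -3.03. The heart muscle list had a median of 0.09 over 7 genes, but its genes ran from -6.26 to 3.37, with 4 positive. The smooth muscle list had a median of -0.40 over 7 genes, from -3.08 to 0.21. Over 17 genes of other neighbouring tissues the median was -0.41, from -9.68 to 3.36, while the 13 thyrocyte genes were all higher, with a median of 1.58. In these lists 0 of 99 genes were called in limma, 53 of them had an unadjusted p under 0.05 (27.1% of all probes did), and the median of all probes was 0.18. Skeletal muscle and thyrocyte lists had medians of opposite sign, and the part of tissue composition in the result was not tested.

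In the controls of 7 months, 0 of the 10 genes were called against those of 4 months (0.00415% of all probes). No gene had an unadjusted p under 0.05, against 7.61% of all probes, and the median difference was 0.11. Myh4 differed by -1.74 ± 1.5 (SE), with -2.02, 8.14 and 6.48 on the 3 arrays. The highest of these values came from an array without the thyroid pattern, and the difference without it was -3.71. Without that array the median of the 10 genes turned to -0.39, with 1 gene positive in place of 7. When single samples were left out, this median ran from -0.39 to 0.80. In the controls of 10 months all 10 genes were slightly higher than at 4 months, by 0.21 to 0.90, with 0 called (0% of all probes). No gene had an unadjusted p under 0.05, against 3.63% of all probes. Tnnc2 did not overlap between these groups, with 7.77, 7.72, 7.74 and 7.55 against 7.24, 7.26, 7.53 and 7.50 (difference 0.32 ± 0.88 SE). Of all probes, 1.84% did not overlap in that direction. The two-sided exact permutation p was 0.0286, the smallest possible, and only restates the lack of overlap for which Tnnc2 was picked.

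**Figure D4:**
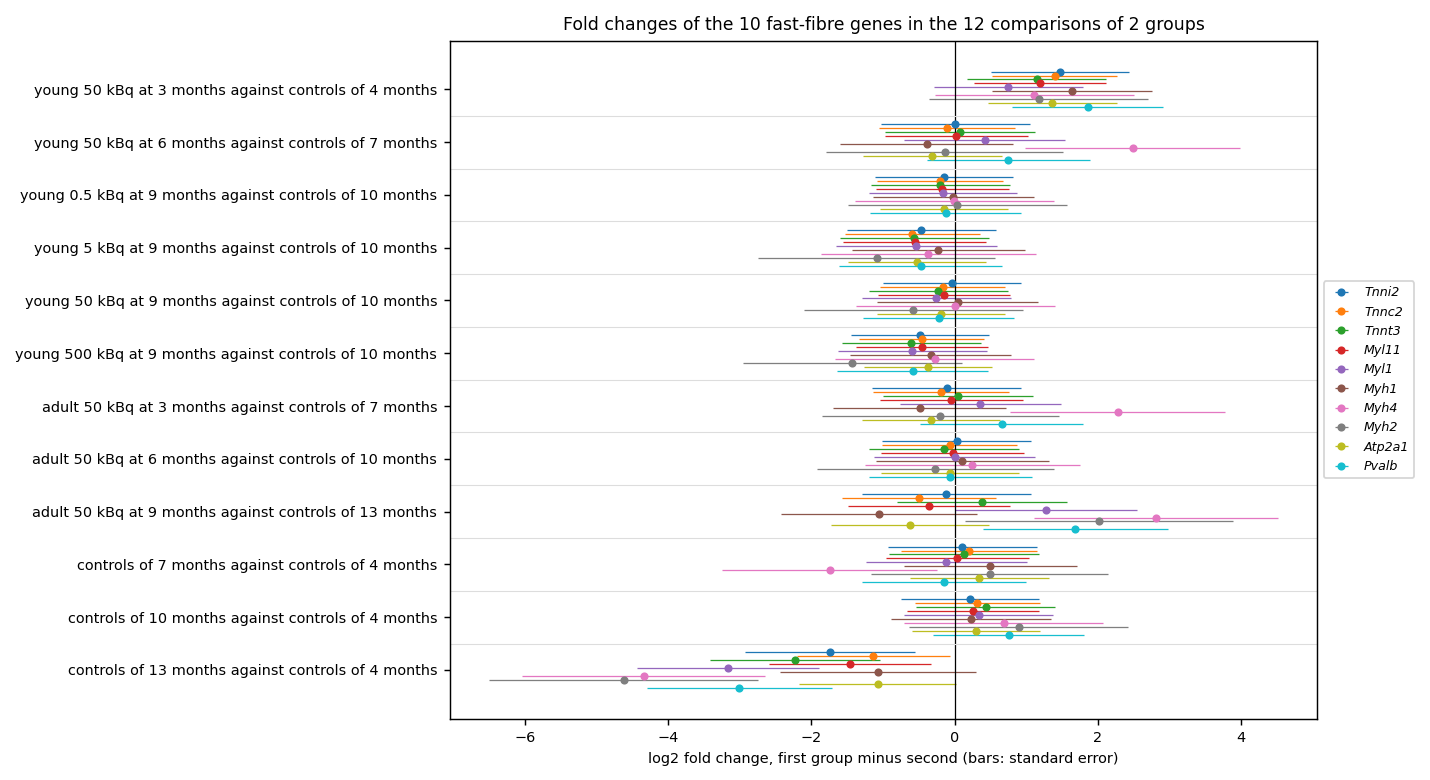
Log2 fold change of each of the 10 genes (points, with the standard error as a bar) in the 12 comparisons of 2 groups (y axis). The genes lie between -4.62 and -1.07 for the controls of 13 months against those of 4 months. For exposed groups single genes lie between -1.43 and 2.81. The median of the 10 genes lies between -0.53 and 0.13 for each exposed group except the young group at 3 months (1.28).

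At 9 months after injection of young rats, the 4 activities were each set against the same controls of 10 months, so these comparisons share their control samples. The median of the 10 genes was lowest after 5 kBq (-0.53), followed by 500 kBq (-0.47), 50 kBq (-0.18) and 0.5 kBq (-0.15). None of the 10 genes was called at any activity. Of all probes, 0.0124% were called for 5 and for 50 kBq and 0% for 0.5 and for 500 kBq. No gene had an unadjusted p under 0.05. Of all probes, 0.942% did for 0.5 kBq, 1.71% for 5 kBq, 1.36% for 50 kBq and 1.58% for 500 kBq. At 5 kBq all 10 genes were lower, from -1.09 for Myh2 to -0.23 for Myh1, and Tnnt3 and Tnnc2 did not overlap with the controls (2 of 10, against 6.63% of all probes). Tnnt3 was at 6.40, 6.42 and 7.10 in the 5 kBq group and at 7.20, 7.29, 7.20 and 7.12 in the controls, a difference of -0.56 ± 1.05 (SE) with a two-sided exact permutation p of 0.0286, the smallest possible. Tnnc2 was at 6.90, 6.89 and 7.52 against 7.77, 7.72, 7.74 and 7.55, a difference of -0.59 ± 0.95 (SE). The exact permutation test gave it the same p. Both genes were picked for not overlapping, and this p only restates that.

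At 500 kBq the differences rested on replicate 4. Myh2 was at 4.36, 4.40, 4.71 and -1.35 and Tnni2 at 7.60, 8.05, 7.52 and 5.52, so that 3 arrays lay at the level of the controls and 1 lay far below. Leaving out one array at a time, the median at 500 kBq ran from -0.78 to 0.07. Over the 15 exposed arrays the slope on log10 of the activity was negative for all 10 genes, from -0.04 for Atp2a1 to -0.40 ± 0.33 (SE) for Myh2 per unit of log10 activity, and 0 were called with an adjusted p of 0.9996 in limma for each, against 0% of all probes. The median slope ran from -0.13 to 0.08 when single arrays were left out.

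In young rats 3 months after 50 kBq, all 10 genes had a positive difference, from 0.75 for Myl1 to 1.85 ± 1.05 (SE) for Pvalb, with a median of 1.28 against 0.26 for all probes. None was called (0% of all probes), and the smallest adjusted p in limma was 0.195. No gene had an unadjusted p under 0.05, against 36.7% of all probes. Pvalb was at 6.91, 10.00, 8.70 and 7.43 in the exposed and at 6.66, 5.06, 6.77 and 7.12 in the control rats. The upper values came from the dim array and from the array without the thyroid pattern, and without these arrays the median was 0.33. On the unscaled signal the median was -0.41. At 6 months the median was 0.01, from -0.39 for Myh1 to 2.49 for Myh4, with 0 called (0% of all probes). No gene had an unadjusted p under 0.05 there, against 6.43% of all probes. Without the control array that lacked the thyroid pattern the median at 6 months was 0.58, with 9 genes positive in place of 6. When single samples were left out, it ran from -0.58 to 0.58.

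In adult rats the median was -0.08 at 3 months, -0.04 at 6 months and 0.13 at 9 months. At each time 0 of 10 genes and 0% of all probes were called. No gene had an unadjusted p under 0.05, against 4.52% of all probes at 3 months, 0.568% at 6 months and 15.5% at 9 months. At 3 months the controls of 7 months are shared with the young group at 6 months, and Myh4 differed by 2.27 ± 1.5 (SE) with exposed values of 5.25, 7.20, 6.87 and 6.56. Without the control array that lacked the thyroid pattern, the median at 3 months turned to 0.53, with 9 genes positive in place of 4. When single samples were left out, the median at 3 months ran from -0.63 to 0.53. Myh4 then differed by 4.24 there and by 4.46 in the young group at 6 months, with adjusted p of 0.579 and 0.382 in limma. The 2 controls left had Myh4 at -2.02 and 6.48, so both differences turned on the lower of them. At 6 months the 10 genes lay within -0.27 and 0.25 of the controls of 10 months.

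At 9 months in adults the result turned on the lowest array. With all 4 arrays the differences from the controls of 13 months ran from -1.06 for Myh1 to 2.81 for Myh4. Without replicate 3 all 10 genes were higher in the exposed rats, by 1.30 to 5.11, with a median of 2.22. Replicate 3 was picked for its low values in these same genes. Leaving it out raises the exposed mean and narrows the spread, so the p and calls without it are no independent support. Myl1 was at 6.28, 6.52 and 6.14 on the other exposed arrays, a difference of 3.49 ± 0.68 (SE) with an adjusted p of 0.0093 in limma, and was the 1 gene of the 10 called, against 41 of 24105 probes (0.17%). Pvalb (3.81), Tnnt3 (2.52), Myh2 (5.07) and Myh4 (5.11) had adjusted p between 0.0121 and 0.0266 in limma. Leaving out only the 3 arrays that stand apart, 0 genes were called, against 633 of 24105 probes. With replicate 3 left out as well, 7 genes were called against 7.9% of all probes, all but Myh1, Tnnc2 and Atp2a1. Other lists moved in the same comparison without replicate 3. Of the further fast-fibre genes 12 of 12 were positive with 4 called (median 3.11), of the sarcomere genes of all fibres 20 of 20 with 2 called (3.39), of the slow-fibre genes 13 of 14 with 0 called (2.47) and of the thyrocyte genes 0 of 13 with 0 called (-0.93), and the part of tissue composition was not tested. The controls of 13 months are low in these genes against the controls of 4 months as well, and in these data n = 2 stands on the control side. In the controls of 4 months Myl1 was at 5.99 ± 0.60 (SD, n = 4). Within the 1 slide that held both groups, the exposed array was replicate 3, and the median difference was -6.14.

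The effect of 50 kBq in young rats was compared with that in adults by interaction contrasts. The median difference of the effects was 1.31 at 3 months, 0.09 at 6 months and -0.27 at 9 months. At each time 0 of the 10 genes were called (0% of all probes). No gene had an unadjusted p under 0.05, against 28.6% of all probes at 3 months, 4.18% at 6 months and 9.18% at 9 months. Without the dim array and the arrays lacking the thyroid pattern, the median turned to -0.21 at 3 months, with 3 genes positive in place of 9. At 6 months it was 0.66, with 9 positive in place of 6, and ran from -0.53 to 0.66 when single samples were left out. At 9 months the median was -2.35 without replicate 3 of the adult group, with 0 called against 0.00415% of all probes and 9 with an unadjusted p under 0.05, against 14.8% of all probes. Leaving out only the 3 arrays that stand apart, the median at 9 months was -0.27, with 0 genes called against 0 of 24105 probes. With replicate 3 of the adult group left out as well, Tnnt3, Myl1 and Pvalb were called, against 1.52% of all probes. That replicate was picked for its low values in these same genes, so the p and calls without it are no independent support.

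**Figure D5:**
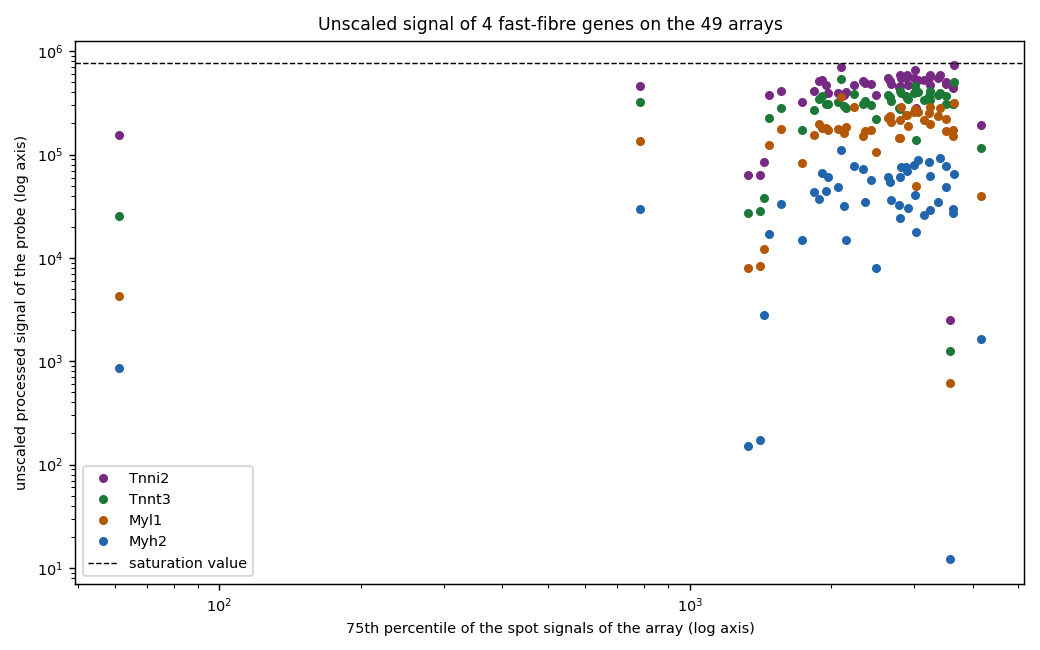
Unscaled processed signal of the probes (y axis, log) against the 75th percentile of the spot signals of the array (x axis, log), with 1 point per array and the saturation value as a dashed line. The dim array lies at 61.0 on the x axis, and the brightest Tnni2 spot lies at 93.8% of the saturation value.

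Fast and slow fibre genes did not move together on every array. The mean of the slow-fibre list had r = 0.80 with the mean of the 10 genes over the 47 samples, against 0.98 for other fast-fibre genes, 0.97 for sarcomere genes of all fibres and 0.89 for myogenic regulators, given as a description. On replicate 2 of the adult group at 3 months the slow-fibre mean was -1.03, against a median of 2.56 on 40 arrays that included it, with Myh7 at -3.14 and Tnnt1 at -1.01, while the mean of the 10 fast-fibre genes was 6.60. The thyrocyte list had r = -0.33, heart muscle 0.59 and smooth muscle 0.58. Of the heart genes, Nppa was well above background on 0 of 49 arrays and Myh6 on 49, with a median of 4.52.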

How the data were processed

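The authors deposited 1 file per array from Agilent Feature Extraction 10.7.3.1, with background-subtracted signal intensity values not scaled between arrays, and other 0 or 1 marks of the scanner software, deposited per spot, for outliers and for signals well above background. A further table by the authors, with fold changes from comparisons of theirs, was not used. Control and outlier spots were left out, spots of a probe were averaged, each array's 75th percentile was taken off the log2 signals. RefSeq accessions named 17998 of 30367 probes, and 24105 probes well above background on at least 3 arrays were tested. A gene's probe was the one with the highest mean. The fit was made with limma (3.58.1; R 4.3.3; data.table, version 1.17.8), 1 mean per group for 47 samples and Benjamini-Hochberg adjustment. A probe was called at an adjusted p under 0.01 and a fold change above 1.5. The design foresaw 49 separate arrays, and the near-identical pairs were merged after their values were seen. Plots and tables used Python 3.11.15, pandas 2.3.3, numpy 2.4.6 and matplotlib 3.10.9. Normexp correction, an alternative, took median spot signals and an offset of 50. The protocol gives 1 thyroid sample per animal. The same replicate number correlated in every pair only for the young group at 6 months and its controls (0.163 to 0.340). Every gene of the chosen set was named, with every gene list and the 10 genes most correlated with the mean of the set, over the 47 samples and not the 49 arrays that the design foresaw. The members and lists were chosen with earlier results of these data known. The number of arrays limits the precision. Single values were also compared by two-sided exact permutation tests over samples. Alternatives covered scaling, background correction, the filter, slide, scan date and replicate number as blocks, array weights and left-out samples, and the fit was tested on simulated data. Upstream sequences came from RefSeq (GRCr8). The submitters' processing notes name Partek, without a version.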

Additional observations from a re-analysis of the deposited data

Results flagged for a closer look

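In groups of 4 samples, an array was marked where its gap to the nearest other array exceeded Dixon's critical share of the group's range, and 18 of 90 gene and group combinations were marked. Chance marks about 5% of groups, and the genes are not independent of each other. Replicate 3 of the adult 50 kBq group at 9 months was far below its group for all 10 genes, with Tnni2 at -0.52, Tnnc2 at 0.18, Tnnt3 at -1.51, Myl1 at -2.53, Myl11 at -0.58, Myh1 at -3.19, Myh2 at -8.20, Myh4 at -2.50, Atp2a1 at -0.71 and Pvalb at -1.29. Replicate 4 of the young 500 kBq group at 9 months was far below its group for Myh2 (-1.35), Myh4 (4.03) and Myl1 (3.25). Replicate 1 of the adult group at 3 months was below its group for Myl1 (5.58), Pvalb (6.39) and Tnni2 (7.11). Replicate 4 of the young 0.5 kBq group at 9 months was above its group for Atp2a1 (7.63) and Myh1 (7.15).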

How the results depend on the processing

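For most comparisons no alternative changed the count of 0 genes called. It changed where the 3 arrays that stand apart and the lowest array were left out, a choice made after seeing the data, with 7 genes called for the controls of 13 against 4 months, 7 for the adult group at 9 months and 3 for the interaction at 9 months. Without the 3 arrays alone, 0 genes were called in each of these. The lowest array was picked for its low values in these same genes, so the calls without it are no independent support. The adult group at 9 months against its controls was the least stable. Its median was -1.40 with the slide as a block, 1.74 with array weights and 2.22 without the 4 arrays, and it ran from -0.63 to 2.22 when single samples were left out, with 0 to 1 genes called. The median of the interaction at 9 months was 1.58, -1.89 and -2.35 under the same settings and ran from -2.35 to 0.49 when single samples were left out. Fold changes of single genes in this comparison that turned their sign were, with the slide as a block, Myh2 -0.52, Tnnt3 -1.21, Myl1 -0.43 and Pvalb -0.13, and with the scan date as a block, Tnnt3 -0.22. With array weights Myh1 was 0.84, Tnni2 1.46, Tnnc2 0.93, Myl11 1.20 and Atp2a1 0.87. On the unscaled signal Tnni2 was 0.92, Tnnc2 0.54, Myl11 0.69 and Atp2a1 0.42. Without the 4 arrays Myh1 was 1.39, Tnni2 1.92, Tnnc2 1.35, Myl11 1.65 and Atp2a1 1.30. Leaving out single samples gave -0.41 to 2.52 for Tnnt3, -1.96 to 1.39 for Myh1, -0.84 to 1.92 for Tnni2, -1.16 to 1.35 for Tnnc2, -1.08 to 1.65 for Myl11, -1.37 to 1.30 for Atp2a1 and -0.017 to 5.07 for Myh2. Among the controls of 13 against 4 months, Myh1 was 0.21 with the slide as a block. The median of the interaction at 3 months was -0.23 with quantile normalization, -0.49 on the unscaled signal and -0.21 without the 3 arrays or the 4 arrays, and that of the young group at 3 months was -0.41 on the unscaled signal. The causes were not tested.

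The number of probes called for the young group at 3 months moved from 0 to 3633 at an adjusted p under 0.05 and up to 3651 when single samples were left out. For the controls of 13 against 4 months it moved from 5 to 1392 with the 49 arrays as separate samples, 2655 without the 3 arrays and 3386 without the 4 arrays, and it was 0 under several settings, quantile normalization among them. For the adult group at 9 months it moved from 0 to 163 with 49 separate arrays and 1905 without the 4 arrays. With the replicate number as a block (replicate block) the median for the controls of 13 against 4 months was -1.77 with 2 probes called, and the block changed no call of the 10 genes. Within the slides or scan dates that held both groups, the median kept its sign for the controls of 13 against 4 months, from -2.46 to -1.61. The near-identical controls of 13 months lay on different slides and scan dates, so these values are not independent. For the young group at 3 months the median was -0.23 on 1 slide and 1.84 on the other, with 1 exposed and 1 control array on each. The exposed array was replicate 1 on the former slide. On the latter it was replicate 3, which lacked the thyroid pattern.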
